A study of Mus musculus with 52 samples.

Results

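Amino acid transporters of 6 solute carrier families were followed through 13 groups of bone marrow stromal cultures hybridised to Affymetrix Mouse Gene 2.0 ST arrays. The genes were chosen by symbol alone, as those of the Slc1a, Slc3a, Slc7a, Slc36a, Slc38a and Slc43a families, with Slc7a11 left out. The rule found 43 of 22180 genes with a probe set of their own. Of these, 2 are genes on the opposite strand of a transporter (Slc36a1os and Slc7a6os), which leaves 41 transporters. Tests need signal, and a gene entered them if 4 or more of the 52 arrays exceeded the whole table's median, a log2 value of 4.05, which 31 of the 41 transporters did. The other 10 (Slc1a2, Slc3a1, Slc7a9, Slc7a12, Slc7a13, Slc7a14, Slc36a3, Slc38a3, Slc38a5 and Slc38a11) have no test here. Each of them lay above that median on no more than 1 array.

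Marrow was flushed from the long bones of female C57BL/6J mice aged 8 weeks, and the cells of 2 to 4 animals formed a pool that counts as 1 experiment. Such cultures are mixed: besides stromal cells they hold blood-lineage cells, and all 15 macrophage markers examined had means above the table median in every group. Naive cells were taken, undifferentiated, before the medium change on day 7 after plating. All other cultures then received osteoinductive medium, which holds dexamethasone at 10 nM and insulin at 0.5 µg/ml beside ascorbate and β-glycerol phosphate, so the agents below were added on top of a glucocorticoid and insulin. The additions were vehicle (DMSO, 0.1%), rosiglitazone (Rosi, 100 nM, a PPARγ agonist), LG100268 (LG268, 100 nM, a retinoid X receptor agonist), tributyltin (TBT, 80 nM, an organotin), triphenyl phosphate (TPhP, a flame retardant) and mono-2-ethylhexyl phthalate (MEHP, a phthalate metabolite). For TPhP and MEHP the sources used here name no dose. Arrays were made 1 day and 4 days after induction, 4 per group, 1 from each of pools 12, 15, 19 and 20. These pool numbers are the replicate numbers of the sample titles. Values of 4 arrays are given below in that order of pools, on the deposited log2 scale, and means carry the SD over the 4 arrays. Differences are between group means on that scale, with limma's SE, and the words rose and fell are kept for genes whose Benjamini-Hochberg adjusted p over all 14911 genes tested lay under 0.05. Overlap of arrays between groups is described for genes already called. Its share over all genes was not worked out, so it adds no support to a call.

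Solute carriers of these families move amino acids across the plasma membrane or out of lysosomes. The Slc1 family holds the sodium-driven glutamate carriers and the neutral amino acid exchangers ASCT1 (Slc1a4) and ASCT2 (Slc1a5). The Slc7 light chains exchange cationic or large neutral amino acids, several of them bound to the heavy chain 4F2hc, encoded by Slc3a2. Several Slc36 carriers, such as Slc36a1 and Slc36a2, are driven by protons and several Slc38 carriers by sodium. The Slc43 carriers Slc43a1 and Slc43a2 let large neutral amino acids leave or enter cells by facilitated diffusion. In fat, Slc7a10 (Asc-1, a carrier of small neutral amino acids) is known as a surface marker of white adipocytes and Slc36a2 (PAT2) as one of brown and beige adipocytes. Uptake of amino acids feeds protein synthesis and the growth kinase mTORC1, and a shortage of amino acids induces several of these carriers through the transcription factor ATF4.

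RefSeq promoters (250 bases before to 50 after a gene's start, build GRCm38.p6) were at hand for 32 of the 43 genes, 43 promoters in all. Those of Slc1a3 and Slc7a10 are printed because both genes rose with rosiglitazone, as described below, from starts of very different base composition. Capitals mark CG dinucleotides, and each is read 5′ to 3′ on the gene's strand. The Slc1a3 promoter (chr15:8710758-8711057, minus strand) holds 3 of them and the Slc7a10 promoter (chr7:35186135-35186434, plus strand) 24.
Slc1a3: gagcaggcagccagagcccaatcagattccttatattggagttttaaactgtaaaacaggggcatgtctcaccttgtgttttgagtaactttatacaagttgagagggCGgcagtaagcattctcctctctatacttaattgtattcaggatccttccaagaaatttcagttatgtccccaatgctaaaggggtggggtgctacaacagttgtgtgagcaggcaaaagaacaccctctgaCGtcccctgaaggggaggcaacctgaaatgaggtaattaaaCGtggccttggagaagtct
Slc7a10: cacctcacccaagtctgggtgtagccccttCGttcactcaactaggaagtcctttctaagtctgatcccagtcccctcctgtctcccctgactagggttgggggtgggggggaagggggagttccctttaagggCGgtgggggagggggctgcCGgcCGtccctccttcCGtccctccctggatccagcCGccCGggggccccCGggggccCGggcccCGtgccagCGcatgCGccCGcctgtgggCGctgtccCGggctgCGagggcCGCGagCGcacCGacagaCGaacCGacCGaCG
Among all 32851 promoters of the table the median was 7 CG dinucleotides, 31.4% held 3 or fewer and 20% held 24 or more. The members' promoters were also searched on both strands for TGATGNAAN, the letters of the composite C/EBP-ATF element through which ATF4 acts, which 1299 promoters (3.95%) hold. Matches were found in 3 promoters of 2 genes, Slc1a4 (ASCT1) and Slc7a7 (y+LAT1, a carrier of cationic amino acids). Windows of 60 bases around them are given with the matched letters in capitals. In Slc1a4 (chr11:20332685-20332744, minus strand) the match lies on the opposite strand and its first base is at -5, with the start base at 0. In Slc7a7 the matches begin at -141 (chr14:54418052-54418111, minus strand) and at -1 (chr14:54417912-54417971, minus strand), and the latter is also held by the promoter of a second start of Slc7a7.
Slc1a4: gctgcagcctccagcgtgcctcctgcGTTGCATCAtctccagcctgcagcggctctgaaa
Slc7a7 at -141: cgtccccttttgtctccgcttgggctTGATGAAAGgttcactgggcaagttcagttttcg
Slc7a7 at -1: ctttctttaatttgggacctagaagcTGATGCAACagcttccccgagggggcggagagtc
The other motif, 2 copies of AGGTCA with any base between them (DR1, the repeat bound by PPAR with RXR), was allowed 1 mismatch. It was found in 0 of the 43 promoters and in 182 of all promoters (0.554%), of which 13 (0.0396%) were exact. With so rare a match, its absence from 43 promoters says little. No promoter was at hand for 11 genes: Slc1a5, Slc7a2, Slc7a3, Slc7a4, Slc7a5, Slc7a12, Slc7a13, Slc36a2, Slc38a1, Slc38a3 and Slc43a3. Neither motif could be searched for in these, among them the rosiglitazone risers Slc1a5 and Slc36a2.

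Across the 13 groups, 23 of the 31 transporters differed by limma's moderated F test, where 68.2% of all genes tested did. The 8 that did not were Slc1a7, Slc3a2, Slc7a2, Slc7a3, Slc7a4, Slc7a15, Slc38a2 and Slc38a8. Of these, Slc7a3, Slc7a4 and Slc7a15 lay above the table median on only 4, 16 and 28 of the 52 arrays.

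**Figure D1:**
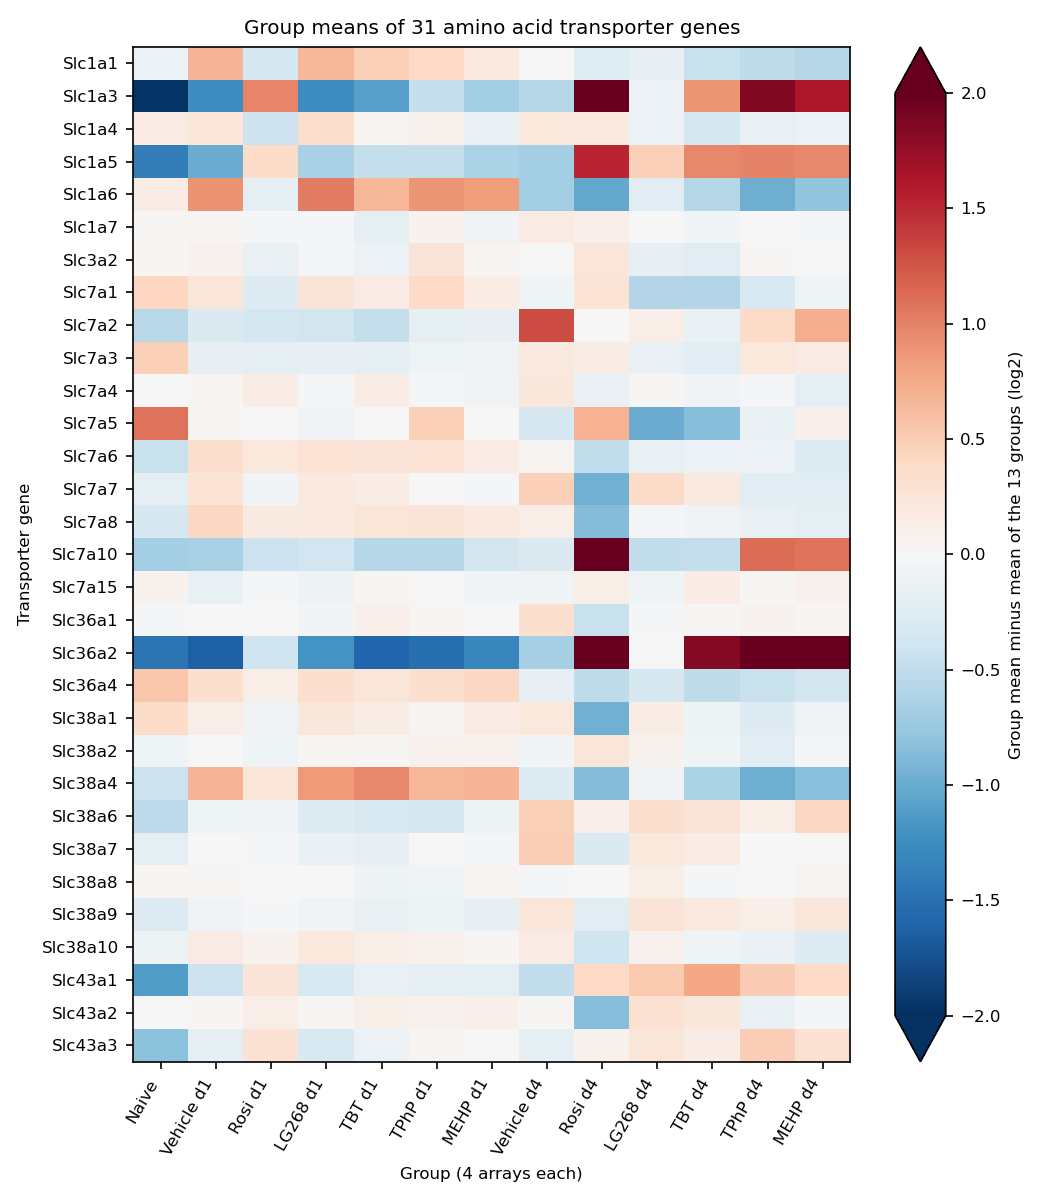
Group means of the 31 transporters tested, one row per gene and one column per group, as the difference from the mean of the 13 groups (log2, colours from -2 to 2). Slc1a3, Slc1a5, Slc7a10 and Slc36a2 are highest in the rosiglitazone cultures at day 4, while Slc7a7, Slc7a8, Slc38a1 and Slc43a2 are lowest there.

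Before any chemical is considered, the vehicle cultures show how these genes stood as medium, DMSO and time in culture changed. At day 1 of osteoinductive medium 7 transporters were higher than in naive cells and 1 was lower, against backgrounds of 12.9% and 4.86% of all genes tested. The risers were Slc7a6 (y+LAT2), Slc7a8 (LAT2, a light chain for neutral amino acids), Slc38a4 (SNAT4, a System A carrier), the glutamate carriers Slc1a1 and Slc1a6, Slc43a1 (LAT3) and Slc43a3, whose product carries purine nucleobases. Slc38a4 stood at 4.99, 5.10, 4.61 and 4.29 in naive cells and at 5.71, 5.82, 5.83 and 6.10 with vehicle at day 1, with no overlap, a rise of 1.12 ± 0.18 (adjusted p = 3.28e-05). Slc7a6 went from 7.78, 8.19, 7.75 and 7.86 to 8.51, 8.76, 8.57 and 8.83, again without overlap (0.77 ± 0.11, adjusted p = 4.42e-06). Both are higher in every pool. For Slc1a1 the arrays were 4.79, 5.00, 5.23 and 4.72 before and 5.00, 5.30, 6.33 and 6.25 after (0.79 ± 0.23), and for Slc1a6 6.55, 6.66, 6.94 and 6.68 and 6.90, 7.05, 7.90 and 7.96 (0.75 ± 0.23), and in both the groups overlapped. The gene that fell was Slc7a5, the LAT1 light chain that brings leucine and other large neutral amino acids into cells. It read 8.96, 9.76, 9.40 and 9.52 in naive cells and 8.10, 8.05, 8.48 and 8.77 with vehicle at day 1, lower in all 4 pools (-1.06 ± 0.32, adjusted p = 0.0182). Adjusted p-values that no longer passed with a pool left out were those of Slc43a3 (0.0506 without pool 20), Slc1a1 (without pools 19 and 20, 0.110 and 0.280), Slc43a1 (without pools 19 and 20, 0.0815 and 0.128), Slc7a5 (without pools 15, 19 and 20, 0.172, 0.104 and 0.0915) and Slc1a6 (without pools 19 and 20, 0.0932 and 0.277). The fit with the pool as a block passed 10 rises and 2 falls, adding Slc1a3, Slc7a7 and Slc38a10 to the rises and Slc7a3 to the falls (blocked adjusted p-values 0.00674, 0.0247, 0.0348 and 0.0445). Shares of all genes, here and below, are those of the fit without the block. Of the markers, 5 of 14 cell cycle and 3 of 15 macrophage genes rose and 3 of 7 B cell genes fell, and their part was not tested.

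By day 4 of vehicle, 13 transporters were above and 3 below their naive level (background 17.4% higher and 11.5% lower). The largest rise was that of Slc7a2, the cationic carrier CAT2 that supplies arginine to macrophages among other cells. Its arrays were 6.61, 6.64, 5.48 and 5.56 in naive cells and 9.66, 8.03, 6.99 and 7.04 at day 4 with vehicle, so that pools 12 and 15 stood far above pools 19 and 20 (1.86 ± 0.61, adjusted p = 0.0179). Slc1a3 (GLAST, a glutamate carrier) rose from 4.09, 4.49, 4.25 and 4.45 to 4.45, 5.69, 6.48 and 6.26 (1.40 ± 0.27), with overlap because pool 12 at day 4 remained among the naive values. Slc38a6, an orphan Slc38 carrier, went from 7.48, 6.96, 6.26 and 6.30 to 8.52, 7.85, 7.35 and 7.32 (1.01 ± 0.28), higher in each pool although the groups overlap. Slc36a2 went from 5.29, 5.27, 4.97 and 5.29 to 5.26, 6.32, 5.88 and 6.54 (0.80 ± 0.30), higher in 3 of 4 pools. Smaller rises were those of Slc1a5, Slc7a6, Slc7a7, Slc7a8, Slc38a7, Slc38a9, Slc38a10, Slc43a1 and Slc43a3, between 0.26 and 0.71.

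The 3 genes below naive at day 4 were Slc7a5, Slc1a6 and Slc36a4 (PAT4, a high-affinity carrier of the Slc36 family). Slc7a5 stood at 8.97, 7.88, 7.58 and 7.55, with pool 12 within the naive range and the other pools below it (-1.42 ± 0.32, adjusted p = 0.000812). Slc1a6 read 5.19, 5.37, 6.62 and 6.28, lower than naive in each pool (-0.84 ± 0.23, adjusted p = 0.00479). Slc36a4 went from 9.32, 9.85, 10.20 and 9.97 to 8.90, 9.19, 9.08 and 9.31 (-0.72 ± 0.16), without overlap. Its other probe set moved the opposite way, by 0.48 against -0.72, and with the mean of both probe sets the adjusted p was 0.873, so the direction for Slc36a4 is uncertain. Several day 4 calls did not pass without 1 pool, namely those of Slc43a3 (without pools 19 and 20, 0.0672 and 0.0514), Slc1a5 (0.0750 without pool 19), Slc1a6 (0.0719 without pool 15), Slc7a8 (without pools 19 and 20, 0.184 and 0.103), Slc7a7 (without pools 19 and 20, 0.107 and 0.0958), Slc7a2 (without pools 19 and 20, 0.0705 and 0.0790), Slc43a1 (without pools 19 and 20, 0.182 and 0.125), Slc36a2 (without pools 15, 19 and 20, 0.197, 0.144 and 0.224) and Slc38a10 (without pools 19 and 20, 0.323 and 0.381). With the pool as a block Slc36a1 was added as the 14th rise (blocked adjusted p = 0.0160). Markers of several cell types moved over the same interval: 8 of 17 adipocyte, 6 of 10 osteoclast, 6 of 10 stromal progenitor and 5 of 12 osteoblast markers rose, and 4 of 7 B cell, 5 of 8 smooth muscle and 5 of 14 cell cycle genes fell. Against these rises 1 adipocyte and 1 osteoclast marker fell, and of 15 macrophage markers 3 rose and 2 fell. Their part in the transporter changes was not tested, and in RNA of a whole culture fewer cells of a type and less RNA per cell cannot be told apart.

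Between day 1 and day 4 of vehicle 1 transporter rose and 4 fell, where 4.6% and 8.29% of all genes did. Slc36a2 was the riser, from 5.16, 4.87, 5.07 and 5.03 to 5.26, 6.32, 5.88 and 6.54 (0.97 ± 0.30, adjusted p = 0.0256). Slc1a6 fell from 6.90, 7.05, 7.90 and 7.96 to 5.19, 5.37, 6.62 and 6.28 (-1.59 ± 0.23, adjusted p = 1.06e-05) and Slc38a4 from 5.71, 5.82, 5.83 and 6.10 to 4.30, 4.75, 5.14 and 5.52 (-0.94 ± 0.18, adjusted p = 0.000492), both without overlap. Both are thus genes that stood higher at day 1 than before induction and came down again, Slc1a6 to below its naive level. Slc36a4 (9.56, 9.52, 9.92 and 9.48 to 8.90, 9.19, 9.08 and 9.31) and Slc1a1 (5.00, 5.30, 6.33 and 6.25 to 5.39, 4.69, 5.16 and 4.89) differed by -0.50 and -0.69, and the other probe set of Slc36a4 by 0.41, the opposite way. The calls of Slc36a2 (without pools 15, 19 and 20, 0.210, 0.0847 and 0.187), Slc36a4 (without pools 12, 19 and 20, 0.0808, 0.211 and 0.0796) and Slc1a1 (without pools 15, 19 and 20, 0.101, 0.250 and 0.350) did not pass without the pools named. With the pool as a block, 10 transporters passed in place of 5 (6 higher and 4 lower), Slc1a3, Slc7a2, Slc38a6, Slc38a7 and Slc38a9 being added among the higher, with blocked adjusted p-values of 0.0128, 0.0338, 0.0253, 0.00607 and 0.0339. Between the same days 7 of 17 adipocyte and 6 of 10 osteoclast markers rose, while 1 adipocyte and 1 osteoclast marker fell. In addition 7 of 8 smooth muscle markers and 9 of 14 cell cycle genes fell. The part of all these markers in the transporter differences was not tested.

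Within 1 day, rosiglitazone raised 5 transporters and lowered 3 against vehicle of that day, beside 4.16% and 3.08% of all genes. Slc1a3 and Slc1a5 led the rises. Slc1a3 read 4.93, 5.12, 4.93 and 5.16 with vehicle and 7.07, 7.50, 7.13 and 7.31 with rosiglitazone, a rise of 2.22 ± 0.27 or 4.65-fold (adjusted p = 7.46e-08). Slc1a5, which takes up glutamine in exchange for other small neutral amino acids, read 9.41, 9.46, 9.02 and 9.06 with vehicle and 10.81, 10.64, 10.43 and 10.57 with rosiglitazone (1.37 ± 0.18, 2.59-fold, adjusted p = 2.51e-07). In both genes every rosiglitazone array lay above every vehicle array. Slc36a2 went from 5.16, 4.87, 5.07 and 5.03 to 7.08, 6.37, 5.69 and 5.95 (1.24 ± 0.30, adjusted p = 0.00483), also without overlap. Slc43a1 and Slc43a3 rose by 0.67 ± 0.21 and 0.47 ± 0.14.

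The 3 that fell at day 1 all belong to the Slc1 family. Slc1a6 (EAAT4) read 6.90, 7.05, 7.90 and 7.96 with vehicle and 5.83, 6.36, 6.79 and 6.55 with rosiglitazone (-1.07 ± 0.23, adjusted p = 0.00139). Slc1a1 (EAAT3) read 5.00, 5.30, 6.33 and 6.25 and 4.32, 4.87, 4.84 and 4.76 (-1.03 ± 0.23, adjusted p = 0.00175), and Slc1a4 (ASCT1) 7.15, 7.34, 7.25 and 7.57 and 6.44, 7.13, 6.60 and 6.52 (-0.66 ± 0.18, adjusted p = 0.0120). No rosiglitazone array reached the vehicle range of these genes, so within this family 2 members had risen and 3 had fallen after a day. The calls that did not pass with a pool left out were those of Slc1a6 (0.0761 without pool 20), Slc1a1 (without pools 19 and 20, 0.0505 and 0.0976), Slc36a2 (0.0918 without pool 15), Slc1a4 (without pools 19 and 20, 0.139 and 0.287), Slc43a3 (without pools 15, 19 and 20, 0.134, 0.115 and 0.214) and Slc43a1 (without pools 12, 15, 19 and 20, 0.0743, 0.177, 0.111 and 0.151). Over the same comparison 16 of 17 adipocyte markers rose, their mean over the list going from 6.53 ± 0.09 (6.42 to 6.64) to 9.15 ± 0.08 (9.04 to 9.22), and 4 of 10 stromal progenitor markers rose. In the same arrays 5 of 8 smooth muscle, 3 of 12 osteoblast and 1 of 10 stromal progenitor markers fell, and 0 of 15 macrophage markers passed the test. The part of these cells in the transporter changes was not tested.

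With the other 4 chemicals, limma called 0 of 31 transporters against vehicle at day 1. At an unadjusted p under 0.05 the numbers were 0 with LG268, 1 with TBT, 2 with TPhP and 4 with MEHP. No share of all genes was worked out at that threshold, and the shares that follow are by adjusted p. Few genes of any kind were called on that day: 0.228% of all genes were higher and 0.0134% lower with LG268, 0.496% and 0.0469% with TBT, 0.181% and 0.0335% with TPhP, 0.362% and 0.161% with MEHP. For Slc1a3 the day 1 differences were -0.01 ± 0.27 with LG268, 0.17 ± 0.27 with TBT, 0.78 ± 0.27 with TPhP and 0.55 ± 0.27 with MEHP. The TPhP difference of Slc1a3 had an adjusted p of 0.469 with all pools and 0.00381 without pool 12, in which the gene stood at 5.21 with TPhP and 4.93 with vehicle. Slc1a5 differed by 0.35 ± 0.18, 0.52 ± 0.18, 0.54 ± 0.18 and 0.36 ± 0.18 in the same order of chemicals, positive each time and not past the threshold. These comparisons share the vehicle arrays of day 1.

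At day 4 of rosiglitazone 7 transporters stood above vehicle and 10 below, where 21.3% and 27.7% of all genes did, and the members' median difference was -0.22 beside -0.05 for all genes tested. The 4 largest differences among these calls were rises. Slc36a2, the proton-coupled carrier of glycine, alanine and proline known from brown and beige fat, read 5.26, 6.32, 5.88 and 6.54 with vehicle and 10.25, 9.71, 9.86 and 9.79 with rosiglitazone. This was a difference of 3.90 ± 0.30, or 15-fold (adjusted p = 4.27e-14). Slc7a10 (Asc-1) read 4.79, 4.84, 4.76 and 4.80 with vehicle and 7.66, 6.97, 8.42 and 8.13 with rosiglitazone, 3.0 ± 0.29 higher (7.99-fold, adjusted p = 9.32e-12). At day 1 the same gene had read 4.38, 4.45, 4.30 and 4.62 and 4.46, 4.55, 4.61 and 5.02 (adjusted p = 0.779), so its rise falls between the 2 times. Slc1a3 stood at 8.17, 8.51, 8.38 and 8.40 (2.65 ± 0.27, 6.27-fold, adjusted p = 5.67e-11) and Slc1a5 at 11.88, 11.70, 11.71 and 11.75 against 9.22, 9.35, 9.79 and 9.89 with vehicle (2.20 ± 0.18, 4.60-fold, adjusted p = 1.27e-13). In these 4 genes the lowest rosiglitazone array lay above the highest vehicle array, and each call passed with any 1 pool left out. A second probe set of Slc1a5 gave 2.84 for the same difference. Slc43a1 rose by 0.89 ± 0.21 (adjusted p = 0.000432), to 7.43, 7.06, 7.65 and 7.40 from 6.21, 6.37, 6.70 and 6.71.

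**Figure D2:**
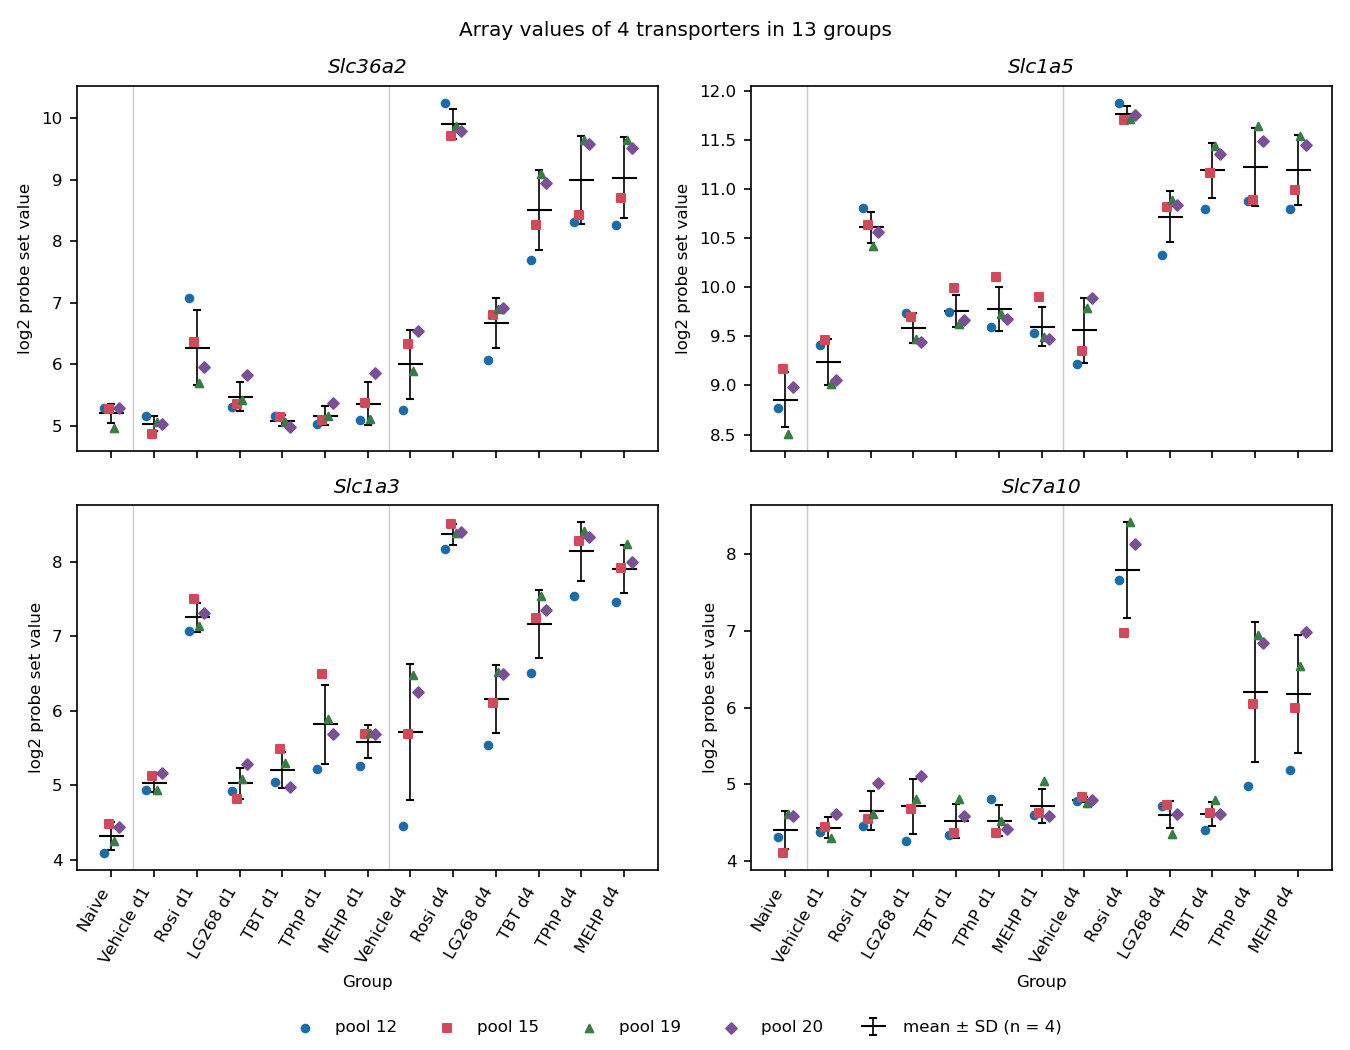
Log2 value of each array (points, marked by pool) with the group mean and SD (bars) for Slc36a2, Slc1a5, Slc1a3 and Slc7a10 in the 13 groups of 4 arrays. All 4 genes are highest with rosiglitazone at day 4, and Slc7a10 stays near its vehicle level with LG268.

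Adipocyte markers rose with these genes: 17 of 17 were higher with rosiglitazone at day 4, the list's mean going from 7.51 ± 0.71 (6.55 to 8.15) to 10.70 ± 0.20 (10.40 to 10.83). The 6 brown fat markers tested rose as well. The list's mean, taken over the 7 markers with a probe set, went from 3.65 ± 0.08 (3.57 to 3.76) to 7.14 ± 0.82 (5.91 to 7.63). The mean of Dio2 stayed under the table median in every group. That of Ucp1 exceeded it only with rosiglitazone at day 4, so Ucp1 may have passed the filter through that group alone. The part of these cells in the rise of Slc36a2, Slc7a10, Slc1a3 and Slc1a5 was not tested.

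Of the 10 that fell with rosiglitazone at day 4, Slc7a7, Slc38a1 and Slc7a8 fell furthest. Slc7a7 pairs with 4F2hc to export cationic amino acids and is known from macrophages, kidney and gut. It read 8.70, 8.58, 8.34 and 8.45 with vehicle and 7.20, 7.83, 6.78 and 6.55 with rosiglitazone (-1.43 ± 0.21, adjusted p = 2.29e-07). Slc38a1 (SNAT1, a System A carrier that takes up glutamine) read 8.95, 8.33, 8.14 and 8.16 and 7.41, 7.83, 6.88 and 6.80 (-1.17 ± 0.18, adjusted p = 4.66e-07). Slc7a8 read 10.54, 10.45, 10.52 and 10.38 and 9.37, 9.78, 9.45 and 9.30 (-1.0 ± 0.14, adjusted p = 8.47e-08). In each of the 3 the groups are apart. Slc43a2 (LAT4), which carries branched-chain amino acids, phenylalanine and methionine, went from 9.01, 8.69, 8.94 and 8.85 to 8.10, 8.30, 7.83 and 7.77 (-0.87 ± 0.09, adjusted p = 3.52e-11), a smaller step with a tighter spread.

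The remaining 6 that fell include carriers of lysosomes: Slc36a1 (PAT1, -0.78 ± 0.15), Slc38a7 (SNAT7, which exports glutamine, -0.79 ± 0.19) and Slc38a9 (the arginine sensor of mTORC1, -0.46 ± 0.11). Slc38a4 (-0.61 ± 0.18), Slc38a10 (-0.56 ± 0.10) and Slc7a6 (-0.54 ± 0.11) fell too. A second probe set of Slc38a10, near the table median, differed by -0.20. Of the 10 falls, 9 passed with any single pool left out, the exception being Slc38a4 (0.0507 without pool 19). Macrophage markers fell in the same arrays, 14 of 15, their mean going from 9.92 ± 0.12 (9.77 to 10.04) to 8.84 ± 0.56 (8.44 to 9.64). So did 10 of 12 osteoblast markers (list mean 7.79 to 9.37 with vehicle and 6.49 to 7.27 with rosiglitazone), 7 of 10 stromal progenitor markers (list mean 8.63 to 9.26 with vehicle and 7.96 to 8.59 with rosiglitazone), 6 of 10 osteoclast markers (list mean 6.82 to 7.67 with vehicle and 6.04 to 6.62 with rosiglitazone), 6 of 8 smooth muscle markers (list mean 6.44 to 8.04 with vehicle and 6.14 to 6.86 with rosiglitazone) and 14 of 14 cell cycle genes (list mean 7.53 to 7.85 with vehicle and 6.20 to 6.83 with rosiglitazone). The part of these lists in the falls was not tested, and with so many lists lower at once their contributions cannot be told apart here.

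**Figure D3:**
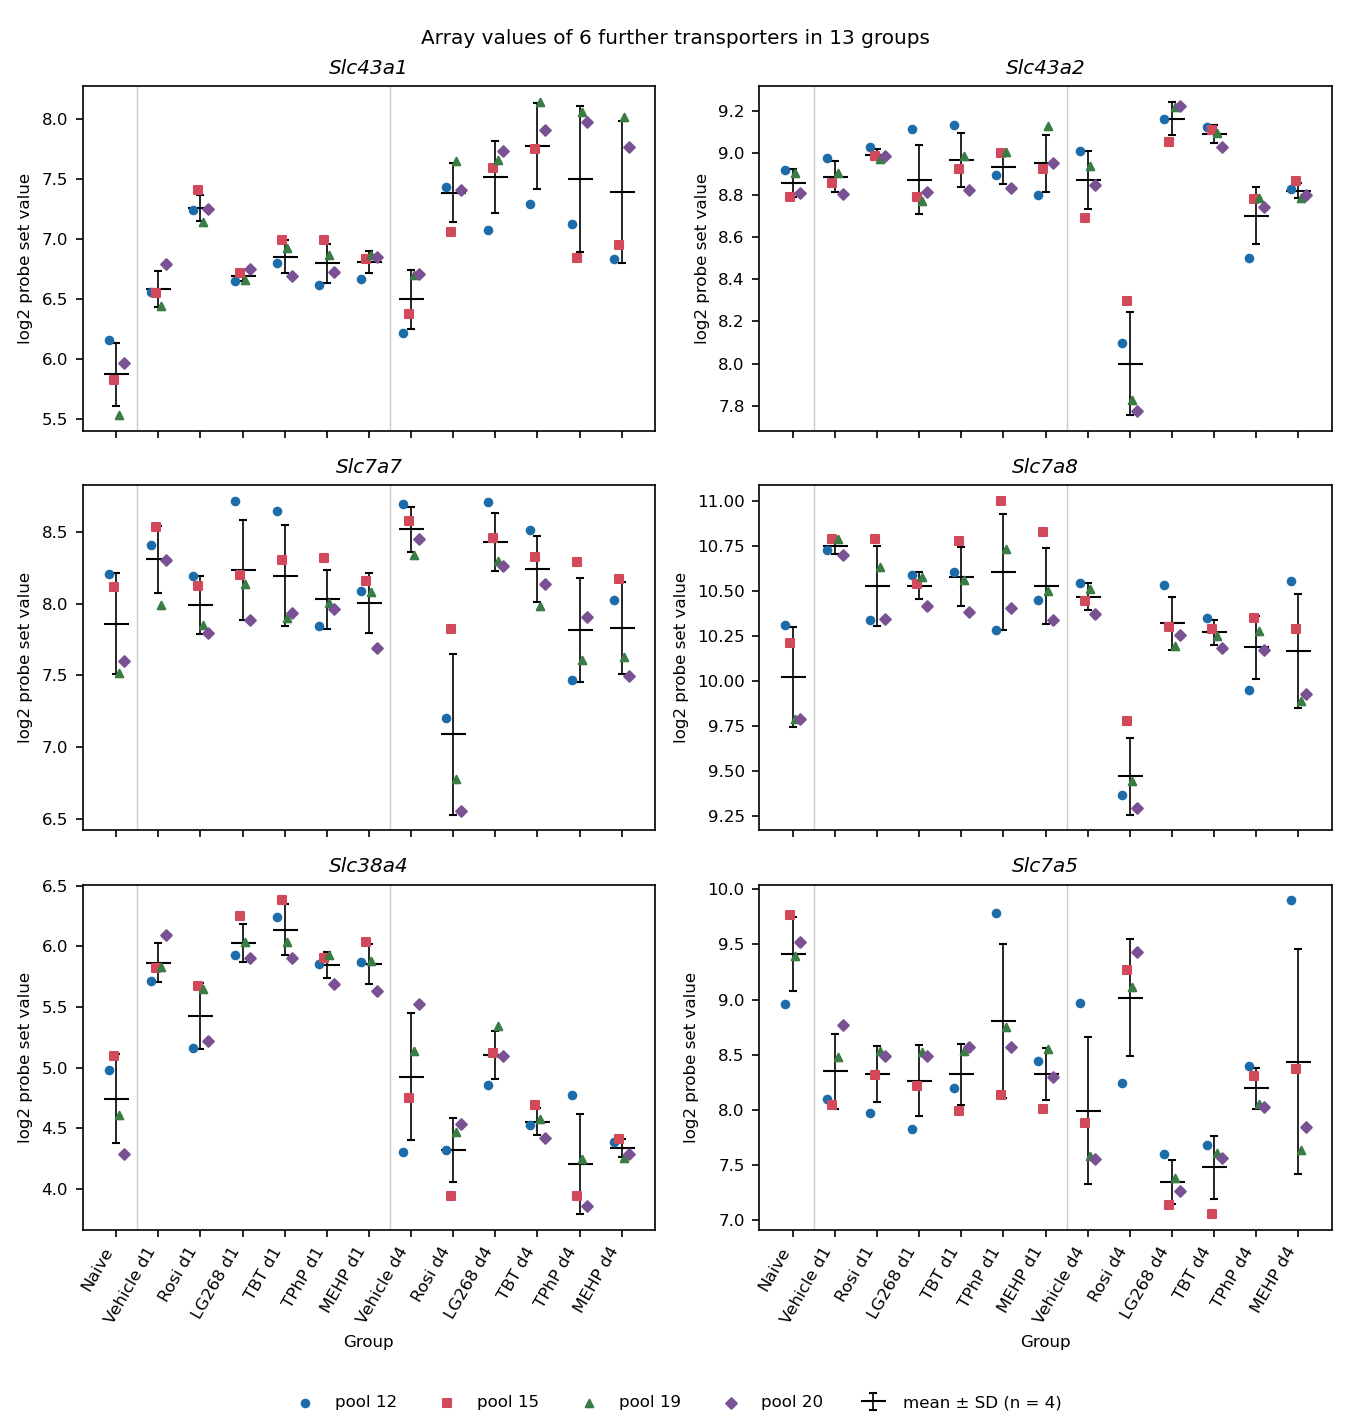
Log2 value of each array (points, marked by pool) with the group mean and SD (bars) for Slc43a1, Slc43a2, Slc7a7, Slc7a8, Slc38a4 and Slc7a5 in the 13 groups of 4 arrays. Slc43a2, Slc7a7 and Slc7a8 are lowest with rosiglitazone at day 4, Slc38a4 is high at day 1 and low at day 4, and Slc7a5 spreads widely between pools.

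**Figure D4:**
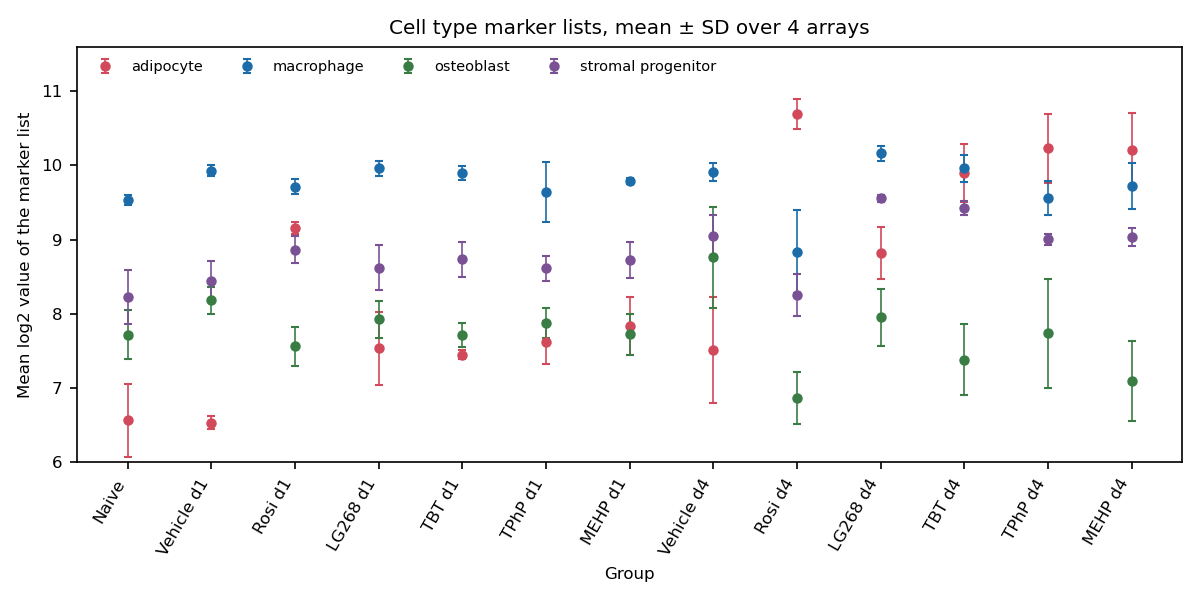
Mean of the adipocyte, macrophage, osteoblast and stromal progenitor marker lists in each group (mean and SD of 4 arrays, log2). The adipocyte mean is highest with rosiglitazone at day 4 (10.70) and the macrophage mean is lowest there (8.84).

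LG268 at the same concentration and day raised 3 transporters and lowered 0, beside 4.21% and 2.26% of all genes. Slc1a5 read 10.33, 10.82, 10.89 and 10.83 (1.16 ± 0.18, 2.23-fold, adjusted p = 1.51e-05), pool 12 being the lowest and still above every vehicle array. Slc43a1 read 7.07, 7.59, 7.65 and 7.73 (1.01 ± 0.21, 2.02-fold, adjusted p = 0.00141) and Slc43a2 9.16, 9.05, 9.22 and 9.22 (0.29 ± 0.09, adjusted p = 0.0354). None of these overlapped vehicle, but for Slc43a2 the adjusted p was without pools 15, 19 and 20, 0.155, 0.140 and 0.229. The other rosiglitazone risers did not pass with LG268: Slc36a2 differed by 0.67 ± 0.30 (95% interval 0.06 to 1.27, adjusted p = 0.191), Slc1a3 by 0.44 ± 0.27 (-0.10 to 0.99, adjusted p = 0.373) and Slc7a10 by -0.19 ± 0.29 (-0.77 to 0.38, adjusted p = 0.781). For Slc7a10 the vehicle arrays were already near the table median. With the pool as a block 5 transporters passed in place of 3, Slc43a3 being added among the higher (0.42 ± 0.14, blocked adjusted p = 0.0461) and Slc36a1 as the only lower one (-0.35 ± 0.15, blocked adjusted p = 0.0465). Adipocyte markers were higher in 10 of 17 cases (list mean 8.36 to 9.14), 0 of 6 brown fat markers passed the test, 2 of 15 macrophage and 3 of 10 stromal progenitor markers rose, and 3 of 12 osteoblast, 3 of 10 osteoclast and 8 of 11 neutrophil markers fell (list mean 7.16 to 8.90 with vehicle and 5.61 to 6.84 with LG268).

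TBT raised 4 transporters at day 4 and lowered 1 (10.6% and 9.42% of all genes). Slc36a2 read 7.69, 8.26, 9.10 and 8.95 (2.50 ± 0.30, 5.66-fold, adjusted p = 4.01e-08), Slc1a5 10.80, 11.17, 11.44 and 11.36 (1.63 ± 0.18, adjusted p = 3.99e-09) and Slc1a3 6.51, 7.24, 7.54 and 7.35 (1.44 ± 0.27, adjusted p = 0.000119). Slc43a1 stood at 7.29, 7.75, 8.14 and 7.91, its highest mean of the 13 groups (1.27 ± 0.21, adjusted p = 1.71e-05). In all 4 the TBT arrays lay above the vehicle arrays. Slc7a10 differed by -0.18 ± 0.29 (95% interval -0.76 to 0.39, adjusted p = 0.703), from vehicle arrays near the table median. Slc1a4 fell from 7.52, 7.14, 7.32 and 7.24 to 6.52, 6.62, 6.87 and 6.93 (-0.57 ± 0.18, adjusted p = 0.0173), with adjusted p-values of 0.0984 without pool 19 and 0.0573 without pool 20. The blocked fit passed 9 in place of 5, with the same count of rises and 5 falls, the added ones being Slc7a2, Slc36a1, Slc38a7 and Slc38a10 (blocked adjusted p-values 0.0448, 0.0464, 0.0483 and 0.0446). Among markers 16 of 17 of the adipocyte list rose (list mean 9.40 to 10.22), as did 4 of 6 brown fat, 6 of 8 endothelial and 2 of 15 macrophage markers (macrophage list mean 9.79 to 10.14). Those that fell were 9 of 12 osteoblast, 6 of 10 osteoclast, 6 of 8 smooth muscle, 12 of 14 cell cycle and 5 of 11 neutrophil genes.

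TPhP raised 6 transporters and lowered 3 at day 4, against 11% and 7.94% of all genes. Slc36a2 read 8.32, 8.43, 9.64 and 9.58 (2.99 ± 0.30, 7.94-fold, adjusted p = 5.18e-10), Slc1a3 7.54, 8.28, 8.40 and 8.32 (2.42 ± 0.27, adjusted p = 6.46e-09) and Slc1a5 10.88, 10.89, 11.65 and 11.49 (1.66 ± 0.18, adjusted p = 2.05e-09). Slc7a10 read 4.99, 6.04, 6.94 and 6.85 (1.41 ± 0.29, adjusted p = 0.000282), and Slc43a1 7.12, 6.84, 8.06 and 7.97 (1.00 ± 0.21, adjusted p = 0.000443). Slc43a3 went from 8.68, 8.92, 9.37 and 9.31 to 9.77, 9.39, 10.02 and 9.75 (0.67 ± 0.14, adjusted p = 0.000570). None of the 6 overlapped vehicle and each rise passed with any single pool left out. The falls were less firm: Slc38a4 (-0.72 ± 0.18), Slc7a7 (-0.70 ± 0.21) and Slc38a10 (-0.29 ± 0.10) did not pass with some pools left out, with adjusted p-values of without pools 19 and 20, 0.0974 and 0.196 for Slc38a4, without pools 12, 19 and 20, 0.111, 0.109 and 0.0534 for Slc7a7 and without pools 19 and 20, 0.412 and 0.514 for Slc38a10. The second probe set of Slc38a10, near the table median, differed by -0.10. In the same arrays 17 of 17 adipocyte markers rose (list mean 9.77 to 10.69), 5 of 6 brown fat markers rose, 8 of 12 osteoblast, 5 of 10 osteoclast and 6 of 8 smooth muscle markers fell and 2 of 15 macrophage markers fell (list mean 9.36 to 9.89). The blocked fit passed 5 falls in place of 3, adding Slc38a1 and Slc38a7 (blocked adjusted p-values 0.0173 and 0.00488).

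MEHP likewise raised 6, and lowered 4 (12.1% and 11.7% of all genes). Slc36a2 read 8.26, 8.71, 9.64 and 9.52 (3.03 ± 0.30, 8.17-fold, adjusted p = 3.61e-10), Slc1a3 7.46, 7.92, 8.24 and 7.99 (2.18 ± 0.27, adjusted p = 4.93e-08) and Slc1a5 10.80, 10.99, 11.54 and 11.45 (1.64 ± 0.18, adjusted p = 2.44e-09). Slc7a10 read 5.19, 6.00, 6.55 and 6.98 (1.38 ± 0.29, adjusted p = 0.000259) and Slc43a1 6.84, 6.95, 8.02 and 7.77 (0.89 ± 0.21, adjusted p = 0.00121), and these 5 stood apart from vehicle. The 6th, Slc43a3, rose by 0.47 ± 0.14 with overlap. Slc38a10 went from 8.15, 8.19, 8.41 and 8.51 to 7.91, 8.09, 7.82 and 7.73 (-0.43 ± 0.10, adjusted p = 0.00135), and Slc7a7, Slc38a4 and Slc7a6 fell by smaller multiples of their error (-0.69 ± 0.21, -0.59 ± 0.18 and -0.33 ± 0.11). The second probe set of Slc38a10, near the table median, differed by -0.04. Calls that did not pass without 1 pool were those of Slc43a3 (0.0833 without pool 20), Slc38a10 (without pools 19 and 20, 0.0692 and 0.125), Slc7a7 (without pools 19 and 20, 0.0922 and 0.125), Slc38a4 (without pools 19 and 20, 0.213 and 0.228) and Slc7a6 (without pools 15, 19 and 20, 0.0529, 0.310 and 0.223). With the pool as a block 8 fell in place of 4, the added falls being Slc1a1, Slc7a8, Slc36a1 and Slc38a7 (blocked adjusted p-values 0.0321, 0.0472, 0.0412 and 0.00440). All 17 adipocyte markers rose here too (list mean 9.66 to 10.68), 5 of 6 brown fat and 4 of 8 endothelial markers rose, 9 of 12 osteoblast, 6 of 10 osteoclast, 6 of 8 smooth muscle and 6 of 14 cell cycle genes fell and 1 of 15 macrophage markers fell (list mean 9.40 to 10.02).

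**Figure D5:**
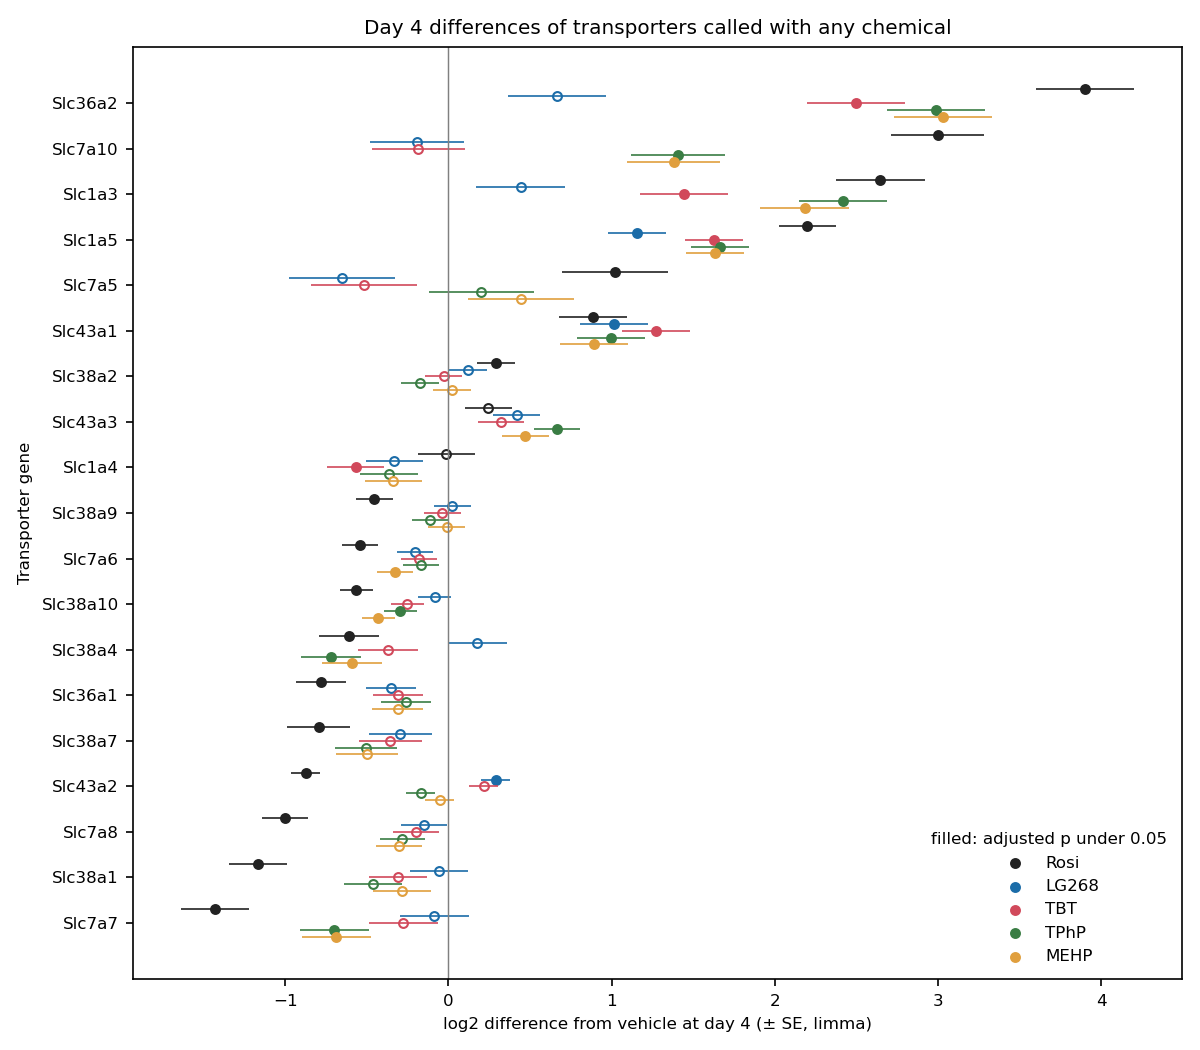
Log2 difference from vehicle at day 4, with SE, for the 19 transporters called with at least 1 of the 5 chemicals (filled points, adjusted p under 0.05). Slc1a5 and Slc43a1 are higher with each chemical, and most of the falls belong to rosiglitazone.

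Read side by side, and with the caution that the 5 comparisons share 4 vehicle arrays and that doses differ or are not given, Slc1a5 and Slc43a1 passed with each chemical. For Slc1a5 the differences were 2.20 with rosiglitazone, 1.16 with LG268, 1.63 with TBT, 1.66 with TPhP and 1.64 with MEHP. For Slc43a1 they lay closer together, from 0.89 with rosiglitazone to 1.27 with TBT. Slc43a2 is the member whose sign differed among these calls, -0.87 with rosiglitazone and 0.29 with LG268. With the other 3 chemicals Slc43a2 differed by 0.22 ± 0.09 (TBT), -0.17 ± 0.09 (TPhP) and -0.05 ± 0.09 (MEHP), none past the threshold.

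Rosiglitazone and LG268 were both given at 100 nM and were tested against each other. At day 1 rosiglitazone stood above LG268 for 3 transporters and below it for 4 (3.61% and 3.38% of all genes). Slc1a3 read 4.92, 4.81, 5.09 and 5.28 with LG268, so the difference was 2.23 ± 0.27 (adjusted p = 1.58e-07), and Slc1a5 read 9.74, 9.70, 9.47 and 9.44 (1.02 ± 0.18, adjusted p = 9.35e-05). Slc43a3 was also higher with rosiglitazone, 9.64, 9.59, 9.42 and 9.49 against 9.23, 8.91, 8.80 and 8.80 (0.60 ± 0.14). Lower with rosiglitazone were Slc1a6 (7.32, 7.46, 7.82 and 7.80 with LG268, -1.22 ± 0.23), Slc1a1 (5.07, 5.78, 5.92 and 6.05, -1.01 ± 0.23), Slc1a4 (7.17, 7.69, 7.32 and 7.59, -0.77 ± 0.18) and Slc38a4 (-0.61 ± 0.18). None of these 7 genes overlapped between both agents, although with a pool left out the calls of Slc1a1 (0.0833 without pool 20), Slc1a4 (without pools 19 and 20, 0.0609 and 0.116), Slc43a3 (0.116 without pool 20) and Slc38a4 (without pools 12, 15, 19 and 20, 0.0759, 0.123, 0.136 and 0.114) did not pass. Among markers, 12 of 17 of the adipocyte list were higher with rosiglitazone and 5 of 8 smooth muscle markers lower, and their part was not tested.

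At day 4 the agents differed in 18 transporters, 7 higher and 11 lower with rosiglitazone, where 21.5% and 26.3% of all genes were. Slc36a2 read 6.06, 6.80, 6.89 and 6.92 with LG268 and was 3.24 ± 0.30 higher with rosiglitazone (9.43-fold, adjusted p = 6.19e-12). Slc7a10 read 4.72, 4.73, 4.35 and 4.62 (3.19 ± 0.29, 9.13-fold, adjusted p = 2.55e-12) and Slc1a3 5.54, 6.10, 6.52 and 6.49 (2.21 ± 0.27, adjusted p = 4.90e-09). Even Slc1a5, raised by both, was 1.04 ± 0.18 higher with rosiglitazone. Slc43a2 had the smallest adjusted p of the members, 4.15e-14, at -1.16 ± 0.09, since it stood above vehicle with LG268 and below it with rosiglitazone. Slc7a7 read 8.71, 8.46, 8.30 and 8.26 with LG268 (-1.34 ± 0.21) and Slc38a1 8.58, 8.11, 8.30 and 8.35 (-1.11 ± 0.18), both apart from the rosiglitazone arrays. The other falls ran from -0.85 for Slc7a8 to -0.34 for Slc7a6, with Slc1a6, Slc36a1, Slc38a4, Slc38a7, Slc38a9 and Slc38a10 between. The other rises were those of the leucine carrier Slc7a5 (1.67 ± 0.32), the arginine and lysine carrier Slc7a1 (CAT1, 0.86 ± 0.27) and the heavy chain Slc3a2 (0.41 ± 0.15). Not passed with a pool left out were Slc7a1 (without pools 15, 19 and 20, 0.0856, 0.0710 and 0.0969), Slc7a6 (without pools 19 and 20, 0.150 and 0.142), Slc36a1 (without pools 19 and 20, 0.0646 and 0.141), Slc3a2 (without pools 15, 19 and 20, 0.149, 0.0578 and 0.264) and Slc38a7 (without pools 19 and 20, 0.103 and 0.119). Slc7a6os, on the strand opposite Slc7a6, was 0.30 ± 0.11 higher (adjusted p = 0.0261), a call not passed without pool 12 (0.0643), 15 (0.0662) or 20 (0.165). Between both agents 15 of 17 adipocyte, 5 of 6 brown fat and 4 of 11 neutrophil markers were higher with rosiglitazone. All 15 macrophage and 14 cell cycle genes, 9 of 10 stromal progenitor, 8 of 12 osteoblast, 5 of 8 smooth muscle and 4 of 10 osteoclast markers were lower, and the part of these cells in the transporter differences was not tested.

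Whether a response at day 4 differed from that at day 1 was tested as an interaction. For rosiglitazone 4 transporters gained and 9 lost between the days (14.4% and 15.6% of all genes). The gains were those of Slc7a10 (2.78 ± 0.40, adjusted p = 1.35e-06), Slc36a2 (2.66 ± 0.43, adjusted p = 6.05e-06), Slc1a5 (0.83 ± 0.25) and Slc1a4 (0.64 ± 0.25), the last because its fall at day 1 was no longer seen (-0.01 ± 0.18 at day 4). Slc1a3 was not among them (0.43 ± 0.38, 95% interval -0.34 to 1.20, adjusted p = 0.445), its difference being 2.22 at day 1 and 2.65 at day 4. The 9 losses were Slc43a2 (-0.98 ± 0.12, adjusted p = 1.32e-07), Slc7a6, Slc7a7, Slc7a8, Slc36a1, Slc38a1, Slc38a7, Slc38a9 and Slc38a10, each called lower with rosiglitazone at day 4 and at day 1 not called. Without 1 pool the calls of Slc7a7 (0.0516 without pool 19), Slc36a1 (without pools 12 and 20, 0.0623 and 0.0544), Slc1a5 (0.0616 without pool 15), Slc38a10 (without pools 19 and 20, 0.125 and 0.129), Slc38a9 (without pools 12, 19 and 20, 0.0509, 0.122 and 0.0619), Slc38a7 (without pools 12, 15, 19 and 20, 0.0594, 0.0556, 0.0765 and 0.0604), Slc7a6 (without pools 15, 19 and 20, 0.0728, 0.364 and 0.226) and Slc1a4 (without pools 15, 19 and 20, 0.0573, 0.215 and 0.429) did not pass. The blocked fit called 7 gains in place of 4, adding Slc1a1, Slc1a6 and Slc38a2 (blocked adjusted p-values 0.0253, 0.0171 and 0.0471).

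For LG268 the interaction called 0 of 31 by limma, where 0.0805% of all genes were called higher and 0% lower. At an unadjusted p under 0.05 there were 4, with no share of all genes to set beside them. Gains between the days were called for 2 transporters with TBT, 4 with TPhP and 3 with MEHP and losses for 0, where 1.37% and 0.396%, 3.66% and 0.832%, and 4.29% and 2.07% of all genes were called. Slc36a2 gained 2.45 ± 0.43 with TBT, 2.86 ± 0.43 with TPhP and 2.70 ± 0.43 with MEHP, and Slc1a5 gained 1.11 ± 0.25, 1.13 ± 0.25 and 1.27 ± 0.25. Slc1a3 gained with TPhP (1.64 ± 0.38) and MEHP (1.63 ± 0.38), and Slc7a10 with TPhP (1.32 ± 0.40). With TBT not passed when a pool is left out are Slc36a2 (0.0661 without pool 19) and Slc1a5 (without pools 15, 19 and 20, 0.0878, 0.104 and 0.140). With TPhP they are Slc1a5 (without pools 19 and 20, 0.0578 and 0.0851), Slc1a3 (without pools 19 and 20, 0.0578 and 0.134) and Slc7a10 (without pools 15, 19 and 20, 0.142, 0.439 and 0.454), and with MEHP Slc1a3 (without pools 19 and 20, 0.0581 and 0.0969). The blocked fit called 4 gains in place of 2 for TBT, adding Slc1a3 (blocked adjusted p = 0.00524) and Slc43a1 (0.0234), and 4 in place of 3 for MEHP, adding Slc7a10 (0.0375).

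For Slc7a5, its heavy chain Slc3a2 and Slc7a1, pool 12 gave both the highest vehicle array and the lowest rosiglitazone array of day 4. With rosiglitazone at day 4 Slc7a5 read 8.24, 9.27, 9.12 and 9.44 against 8.97, 7.88, 7.58 and 7.55 with vehicle, higher in 3 of 4 pools and lower in pool 12 (1.02 ± 0.32, adjusted p = 0.00746). The adjusted p was without pools 15, 19 and 20, 0.0687, 0.101 and 0.162, while without pool 12 it was 6.99e-08. Slc3a2 read 10.28, 10.14, 9.82 and 9.93 with vehicle and 9.94, 10.49, 10.14 and 10.58 with rosiglitazone (0.25 ± 0.15, adjusted p = 0.178), and Slc7a1 7.43, 6.59, 6.44 and 6.88 and 6.52, 7.35, 7.32 and 7.60 (0.36 ± 0.27, adjusted p = 0.284). Slc38a2 (SNAT2, a System A carrier induced when amino acids are short) rose by 0.29 ± 0.12 (adjusted p = 0.0325), without pools 19 and 20, 0.193 and 0.418.

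Pool 12 was also the highest for Slc7a5 with TPhP at day 1 (9.78, 8.14, 8.75 and 8.57) and with MEHP at day 4 (9.90, 8.37, 7.64 and 7.85). Slc3a2 read 10.92, 10.18, 10.15 and 9.97 and 10.70, 9.98, 9.64 and 9.88 in the same groups. The 26 amino acid response genes, a list of ATF4 targets and their regulators that holds none of the transporters, were high in the same arrays. The mean of that list was 7.32, 6.73, 6.70 and 6.74 with TPhP at day 1, 7.37, 6.90, 6.68 and 6.76 with vehicle at day 4 and 7.91, 7.01, 7.34 and 7.26 with MEHP at day 4. With rosiglitazone at day 4 it was 7.39, 7.98, 8.07 and 8.29, pool 12 being the lowest. List and gene did not go together throughout. Slc7a5 had its highest group mean in naive cells (9.41), where the list's mean was 7.11, beside 7.94 with rosiglitazone at day 4. With MEHP at day 4 pool 19 stood above pool 15 for the list and below it for Slc7a5. The part of this response in the levels of Slc7a5 and Slc3a2 was not tested.

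The same list rose with rosiglitazone at day 4 for 20 of its 26 genes and fell for 1 (median 0.88, beside -0.05 for all genes tested), and 16 to 21 rose with a pool left out. The genes with the smallest adjusted p were Psat1 of serine synthesis (1.48 ± 0.15), the translation inhibitor Eif4ebp1 (1.21 ± 0.15), Cth of cysteine synthesis (3.71 ± 0.47) and the hormone Fgf21 (2.28 ± 0.33). With MEHP 10 rose and 0 fell, but 13 rose without pool 12 and 4 without pool 19 or pool 20. With TPhP 5 rose and 1 fell, 15 rising without pool 12 and 2 without pool 19 or pool 20. With TBT 1 rose and 4 fell, but without pool 12 the counts were 5 and 2, and without pool 19 or pool 20 they were 0 and 1. With LG268 0 rose and 3 fell, the falls numbering 2, 0, 1 and 0 without pools 12, 15, 19 and 20. Against LG268, rosiglitazone was higher for 22 and lower for 1. The counts with a pool left out have no share of all genes to set beside them.

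Other genes of amino acid use gave mixed counts with rosiglitazone at day 4, to be read against the 21.3% of all genes that were higher and the 27.7% that were lower. Of 18 cytosolic aminoacyl-tRNA synthetases 7 rose and 2 fell (median 0.23), 12 rising without pool 12 and 4 without pool 20, led by the glycine enzyme Gars (0.79 ± 0.13) and the glutamate and proline enzyme Eprs (0.89 ± 0.15). Of 34 genes of amino acid sensing by mTORC1 13 rose and 9 fell (median 0.13). The kinase Mtor (1.18 ± 0.15) and its partner Mlst8 (0.69 ± 0.09) rose, while the arginine sensor Castor1 (-1.06 ± 0.15) and the lysosomal transcription factor Tfe3 (-0.43 ± 0.06) fell. Of 17 enzymes of glutamine, glutamate and arginine 7 rose and 2 fell (median -0.03). The alanine transaminase Gpt (4.58 ± 0.38), proline dehydrogenase Prodh (2.96 ± 0.31), asparagine synthetase Asns (1.53 ± 0.25, also on the response list) and glutamine synthetase Glul (0.91 ± 0.15) were the firmest. Of 8 glutathione genes 2 rose and 5 fell (median -0.27). The falls include the gamma-glutamyl transferases Ggt7 (-0.73 ± 0.14) and Ggt5 (-0.78 ± 0.17), and without pool 19 or pool 20 there were 2.

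Of 21 amino acid transporters from other families 4 rose and 6 fell with rosiglitazone at day 4 (median 0.06). The mitochondrial glutamate carrier Slc25a22 rose by 2.01 ± 0.18 and the lysosomal cysteine carrier Mfsd12 by 1.54 ± 0.20. The taurine carrier Slc6a6 (-1.21 ± 0.11) and the mitochondrial aspartate-glutamate carrier Slc25a12 (-1.12 ± 0.13) fell. Both counts are near the shares of all genes called in this comparison, 21.3% higher and 27.7% lower.

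Slc7a2 (CAT2) was the transporter with the widest spread inside groups. It read 5.69, 9.45, 5.54 and 5.79 with rosiglitazone, 6.75, 8.00, 6.47 and 6.85 with TPhP and 10.28, 7.08, 6.00 and 6.10 with MEHP at day 4, beside 9.66, 8.03, 6.99 and 7.04 with vehicle. Arg1, the arginase of alternatively activated macrophages, which was chosen after its values were seen, was high in the same arrays. Arg1 read 11.68, 11.10, 5.27 and 4.18 with vehicle, 4.40, 11.54, 4.64 and 4.20 with rosiglitazone, 4.43, 11.39, 5.81 and 7.98 with TPhP and 11.79, 10.75, 4.75 and 4.35 with MEHP. With TBT pool 12 read 9.01 for Arg1 and 6.69 for Slc7a2, so the pair did not go together there. The rosiglitazone difference of Slc7a2 was -1.31 ± 0.61 (adjusted p = 0.0702, and 0.0368 with the pool as a block).

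The members without a call in any comparison of a chemical with vehicle at either day were Slc1a7, Slc3a2, Slc7a1, Slc7a2, Slc7a3, Slc7a4, Slc7a15, Slc36a4, Slc38a6 and Slc38a8. For Slc36a4 this holds for the probe set used. Its other probe set, not tested by itself, differed from vehicle at day 4 by -0.86 with rosiglitazone, -0.49 with LG268, -0.63 with TBT, -0.54 with TPhP and -0.51 with MEHP. Among these, Slc1a7 (EAAT5, a glutamate carrier of the retina) had group means between 4.53 and 4.87, and Slc38a8 between 4.30 and 4.52, near the table median. Slc7a3 (CAT3), Slc7a4 and Slc7a15 reached group means of at most 3.79, 4.14 and 4.21. Slc38a6 had group means from 6.75 in naive cells to 7.76 with vehicle at day 4. Of the glial glutamate carrier Slc1a2, the System N carriers Slc38a3 and Slc38a5, and the kidney and gut carriers Slc3a1 and Slc7a9, array values ran between 2.25 and 4.25, mostly under the table median.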

How the data were processed

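Total RNA of 52 cultures was hybridised to 1 array each. The authors deposited log2 values of 41345 probe sets, for which the submitters' processing notes name oligo and R 3.3.1. How background and normalization were handled is not given in the sources used here. Of the probe sets, 23521 name 1 gene, 1814 several and 16010 none. For a gene with several, the probe set with the highest mean was used. Genes with at least 4 arrays above the table median were tested (14911) and 7269 set aside. All 13 group means were fitted at once in limma 3.58.1 (R 4.3.3; 39 residual and 3.45 prior degrees of freedom, two-sided, Benjamini-Hochberg). The script was tested on simulated data.

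Same-numbered arrays were taken to share a pool of animals, on the ground of the numbers in the sample titles. With group means removed, 43 of 52 correlated best with their own pool. That correlation cannot tell shared animals from a shared date of culture or hybridisation. A fit with the pool as block (36 residual degrees of freedom) is given beside the results whose calls it changed. Its share of all genes called was not worked out, so added calls may follow a general increase. Other alternatives were only the arrays compared, cyclic loess, the mean of probe sets, other filters (none, or the 75th percentile of 6.34) and leaving out each pool. No share of all genes was worked out for these either. Changed counts of transporters or context lists may therefore follow a general change. Array values are printed for up to 6 called transporters with the smallest adjusted p per chemical comparison and the 4 largest rises and falls per vehicle comparison, beside Slc7a1, Slc7a2, Slc7a5 and Slc3a2, chosen after their values were seen. Up to 4 genes per context list are named. The members and lists were chosen with earlier results of these data known. The number of arrays limits the precision.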

Additional observations from a re-analysis of the deposited data

Results flagged for a closer look

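In 22 of 403 sets of 4 arrays (31 transporters, 13 groups) 1 array stood apart from the other 3, its gap to the nearest array being past Dixon's 95% critical value for 4 samples. Chance gives about 1 in 20 such sets. The gap as a share of the range follows each in brackets. High arrays were those of Slc1a5 with MEHP at day 1 in pool 15 (0.866), Slc7a1 in naive cells in pool 15 (0.863), Slc7a2 with rosiglitazone at day 4 in pool 15 (0.936), Slc7a3 with rosiglitazone at day 4 in pool 15 (0.967) and Slc7a10 with MEHP at day 1 in pool 19 (0.928). Also high were Slc38a1 with TBT at day 4 in pool 12 (0.862), Slc38a7 with rosiglitazone at day 4 in pool 15 (0.863), Slc38a9 with vehicle at day 4 in pool 12 (0.92) and Slc43a2 with LG268 at day 1 in pool 12 (0.87). Low arrays were those of Slc1a3 with MEHP at day 1 in pool 12 (0.95), Slc1a3 with TPhP at day 4 in pool 12 (0.85), Slc1a5 with LG268 at day 4 in pool 12 (0.88), Slc7a3 with MEHP at day 1 in pool 20 (0.868), Slc7a6 with vehicle at day 4 in pool 12 (0.869), Slc7a7 with MEHP at day 1 in pool 20 (0.83) and Slc36a2 in naive cells in pool 19 (0.956). Also low were Slc36a2 with LG268 at day 4 in pool 12 (0.86), Slc38a1 with LG268 at day 1 in pool 20 (0.878), Slc38a2 with vehicle at day 1 in pool 15 (0.844), Slc38a8 with LG268 at day 4 in pool 15 (0.918), Slc43a1 with MEHP at day 1 in pool 12 (0.848) and Slc43a2 with TPhP at day 4 in pool 12 (0.849). For Slc7a2 the rosiglitazone array of pool 15 at day 4 read 9.45 and the next 5.79.

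The response at day 4 differed from that at day 1 in 22 of 155 interaction tests by limma, adjusted p-values following in brackets. For rosiglitazone these were Slc1a4 (0.0448), Slc1a5 (0.00956), Slc7a6 (0.0343), Slc7a7 (0.00357), Slc7a8 (0.00227), Slc7a10 (1.35e-06), Slc36a1 (0.00597), Slc36a2 (6.05e-06), Slc38a1 (0.0031), Slc38a7 (0.0227), Slc38a9 (0.0186), Slc38a10 (0.0119) and Slc43a2 (1.32e-07), with 4 of 4 pools in the direction of the mean except for Slc7a6, with 3 of 4. For TBT they were Slc1a5 (0.0111) and Slc36a2 (0.000796). For TPhP they were Slc1a3 (0.00718), Slc1a5 (0.00465), Slc7a10 (0.0493) and Slc36a2 (5.74e-05), Slc7a10 with 3 of 4 pools in that direction, and for MEHP Slc1a3 (0.00631), Slc1a5 (0.0013) and Slc36a2 (0.000131).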

How the results depend on the processing

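Of 128 calls on single transporters, those still past the threshold were 123 with cyclic loess, 89 with only the arrays compared, 128 with the replicate block, 124 with the mean of probe sets, 120 without a filter, and 121, 108, 78 and 76 without pool 12, 15, 19 and 20. At the 75th percentile filter 117 of 117 passed. None of these changed direction. Cyclic loess moved the median of all genes by -0.06 to 0.05.

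With the pool as a replicate block the counts of transporters called became 10 for vehicle at day 4 against day 1 (5 without it), 5 for LG268 at day 4 (3), 9 for TBT at day 4 (5) and 4 for the TBT interaction (2). Smaller moves were 12 for vehicle at day 1 against naive cells (8), 17 at day 4 (16), 18 for rosiglitazone at day 4 (17), 11 for TPhP (9) and 14 for MEHP at day 4 (10), 16 for the rosiglitazone interaction (13) and 4 for that of MEHP (3), and no call was lost. With only the arrays compared they became 8 for vehicle at day 4 against naive cells (16), 0 for vehicle at day 4 against day 1 (5), 3 for TPhP at day 4 (9), 5 for MEHP at day 4 (10) and 1 for the TPhP interaction (4). That fit has fewer arrays to estimate the spread. Leaving out 1 pool gave 3 to 9 calls for vehicle at day 1 against naive cells, 8 to 17 at day 4, and 2 to 7 between the days. It gave 3 to 8 for rosiglitazone at day 1, 0 to 1 for TPhP at day 1, 5 to 13 for MEHP at day 4 and 3 to 7 for rosiglitazone against LG268 at day 1. For the interactions it gave 7 to 15 with rosiglitazone, 0 to 3 with TBT and 1 to 5 with TPhP. The share of all genes called was not worked out for these fits, so lower counts may follow a general decrease. Signal close to background limits Slc7a3, Slc7a4, Slc7a15 and Slc38a8. It also limits Slc7a10 in naive and vehicle cultures and with LG268 at day 4.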
